A study of Rattus norvegicus with 10 samples.

Results

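The glutathione transferases described here are Gsta3, Gsta4, Gstm1, Gstm2, Gstm3, Gstp1, Gstt1, Gstt2, Gstk1 and Gstz1, each read in rat liver by probe sets that the platform annotation gives to that gene and no other. All 10 genes had such a probe set. They are read by 11 probe sets of the 15859 on the array that are not controls, and are 10 of 9378 genes with a probe set of their own. The livers came from 10 rats of the strain labelled CRL:WI (Han), 6 to 8 weeks old. There were 5 rats given deionized water by gavage, called vehicle, and 5 given RG3487 at 180 mg/kg by gavage. RG3487 is a drug candidate that binds the nicotinic receptor encoded by Chrna7. All livers were taken 24 h after the dose by the sample labels, whereas the design text of the series gives 2 h. RNA came from tissue of the left lateral lobe. The rats were kept 5 together, and the labels do not say which animals shared a cage. Neither sex nor array batch was given in the sources used here. The labels call the 10 animals separate rats.

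Glutathione transferases join the tripeptide glutathione to electrophilic compounds, which makes drugs, toxins and products of lipid oxidation more soluble and less reactive. The soluble enzymes are dimers and are sorted by sequence into classes, among them alpha, mu, pi, theta and zeta, while the kappa enzyme lies in mitochondria and peroxisomes. Hepatocytes hold large amounts of the alpha and mu enzymes, in rats more around the central vein than around the portal tract, and several of their genes are known to be induced through the transcription factor NRF2, encoded by Nfe2l2, or through the aryl hydrocarbon receptor, encoded by Ahr.

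In the RG3487 livers 4 of the 10 transferases rose, 1 fell and 5 did not pass the test. Gstm3 and Gsta3 rose several-fold, the mu-class genes Gstm1 and Gstm2 rose modestly, and Gstz1, the zeta enzyme of tyrosine breakdown, fell. Gsta4, Gstp1, Gstt1, Gstt2 and Gstk1 did not pass. Gstm3 could be tested only because it was high with RG3487. A gene passed at an adjusted p under 0.05 in limma, a linear model with a moderated error fitted to log2 of signal plus 16 over all 11894 probe sets that were not left out as dim, with Benjamini-Hochberg adjustment over all of them. Of all 7727 genes tested, 22.3% passed as higher and 7.4% as lower. The median change of the 10 transferases was 0.08 on the log2 scale, beside 0.09 over all genes tested. The groups did not overlap in 5 of the 10, the same 5 that passed, whereas they did not overlap in 20.2% of all genes tested.

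**Figure D1:**
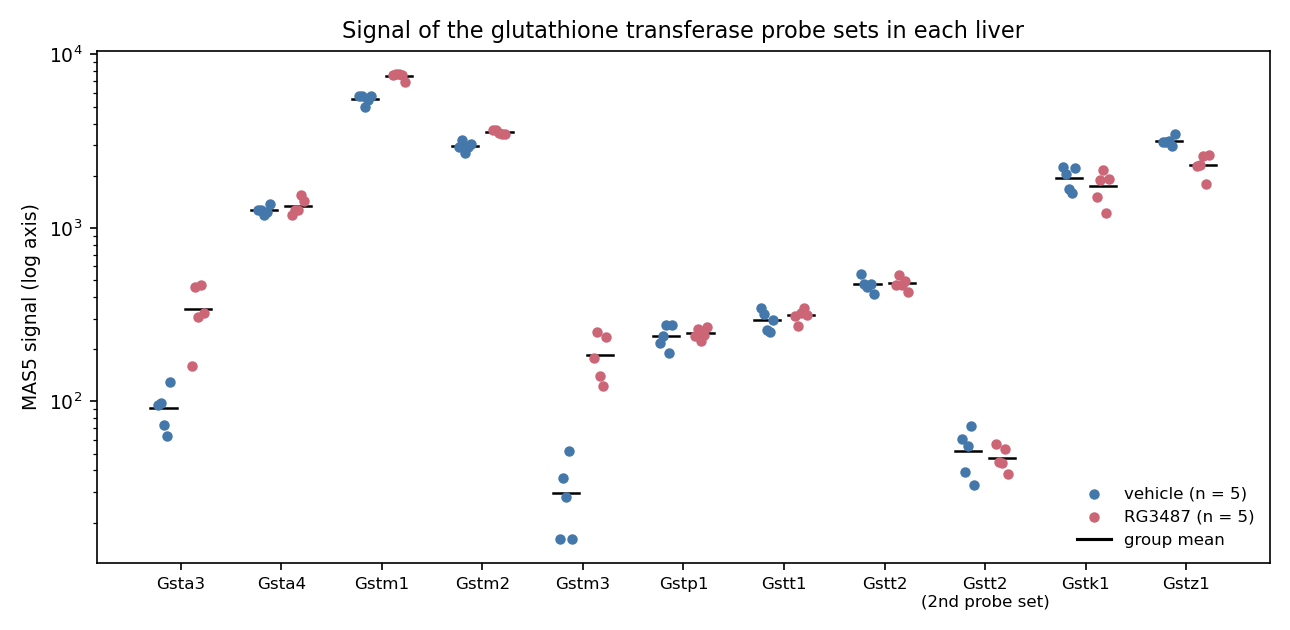
The signal of each probe set in each liver is plotted on a log axis, with the vehicle livers in blue, the RG3487 livers in red and group means as black bars. All 5 RG3487 livers lie above all vehicle livers for Gsta3, Gstm1, Gstm2 and Gstm3 and below them for Gstz1, and the groups overlap elsewhere.

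The deposited values are MAS5 signals scaled to a common array mean. The median signal was 85 to 91 in the vehicle arrays and 92 to 96 in the RG3487 arrays (exact permutation p = 0.00794, the smallest the design allows; adjusted p = 0.0132 over 5 array measures). The maximum signal was instead lower with RG3487, 9113 to 10252 against 10418 to 11392 with vehicle (exact permutation p = 0.00794, adjusted p = 0.0132). The ratios of 3′ end to 5′ end signal did not pass for actin (exact permutation p = 0.119, adjusted p = 0.119) or GAPDH (0.0556 and 0.0694). The mean log2 signal of 18 hybridization control probe sets (spiked-in transcripts of bacteria and a phage) was lower with RG3487 (9.85 ± 0.03 and 9.65 ± 0.03, SD, n = 5 each; exact permutation p = 0.00794, adjusted p = 0.0132). With the arrays scaled to these controls, the median over all genes tested became 0.28 in place of 0.09, and with it Gsta4 (0.27), Gstt1 (0.29) and Gstt2 (0.21) also passed as higher, close to or below that shifted median. Under it the log2 change of Gstm2 was 0.47 in place of 0.27 and that of Gstz1 -0.26 in place of -0.46. Gsta3, Gstm1 and Gstm2 passed as higher and Gstz1 as lower under that scaling, under quantile normalization and under median centring. Median centring sets each array's median log2 signal equal. Gstm3 also passed as higher under each of them. That is only a description, since as deposited Gstm3 could be tested only because it was high with RG3487.

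Where RefSeq gave a start site, the sequence around it was read for 8 of the 10 genes, in 9 windows of 300 bases that run from 250 bases before a start to 50 after it (build GRCr8). The windows were searched on both strands for TGACNNNGC, the core of the antioxidant response element through which NRF2 acts, and for GCGTG, the core of the xenobiotic response element bound by the aryl hydrocarbon receptor. Those printed below are Gsta3, Gstm3 and Gstm1, which rose, and Gstp1, which did not pass although its window holds both cores. Capitals mark the matches, and the bases run 5′ to 3′ along the gene.
Gsta3, chr9:31154739-31155038 (plus strand): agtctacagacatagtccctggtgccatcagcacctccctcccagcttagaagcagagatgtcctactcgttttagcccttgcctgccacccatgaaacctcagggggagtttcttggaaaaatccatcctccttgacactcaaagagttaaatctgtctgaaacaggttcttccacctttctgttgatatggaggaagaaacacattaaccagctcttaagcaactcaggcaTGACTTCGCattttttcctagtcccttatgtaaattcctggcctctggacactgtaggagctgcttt
Gstm3, chr2:198300618-198300917 (minus strand): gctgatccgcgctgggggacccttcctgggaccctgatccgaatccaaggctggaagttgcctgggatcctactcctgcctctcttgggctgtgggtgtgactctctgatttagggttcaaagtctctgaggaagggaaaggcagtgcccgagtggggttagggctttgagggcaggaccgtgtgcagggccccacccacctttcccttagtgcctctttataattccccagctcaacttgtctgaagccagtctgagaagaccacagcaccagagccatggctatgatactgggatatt
Gstm1, chr2:198343334-198343633 (minus strand): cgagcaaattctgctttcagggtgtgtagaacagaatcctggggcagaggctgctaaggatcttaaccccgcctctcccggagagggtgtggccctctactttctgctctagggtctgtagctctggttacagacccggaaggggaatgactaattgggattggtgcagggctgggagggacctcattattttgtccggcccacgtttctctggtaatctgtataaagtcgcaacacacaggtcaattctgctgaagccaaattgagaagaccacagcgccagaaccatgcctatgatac
Gstp1, chr1:210769656-210769955 (minus strand): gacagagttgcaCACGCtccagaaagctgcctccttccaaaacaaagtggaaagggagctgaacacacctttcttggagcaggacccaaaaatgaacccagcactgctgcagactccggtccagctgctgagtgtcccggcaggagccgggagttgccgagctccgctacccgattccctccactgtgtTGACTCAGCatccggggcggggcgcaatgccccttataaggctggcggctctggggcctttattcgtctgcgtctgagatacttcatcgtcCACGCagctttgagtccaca

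The TGACNNNGC core was present in 12.1% of 33469 RefSeq windows of the same length, and among the transferases in 1 of the 2 windows of Gsta3 and in those of Gstp1 and Gstz1. In Gsta3 it reads TGACTTCGC and begins 17 bases before the start, and in Gstp1 it reads TGACTCAGC and begins 61 bases before it. The Gstp1 match also contains TGACTCA, a sequence bound by AP-1 factors. The GCGTG core was present in 29.7% of all windows, and here in the other window of Gsta3 and in those of Gsta4, with 3 matches, and Gstp1, with 2. No 2 matches overlapped. Neither core was found in the windows of Gstm1, Gstm2, Gstm3 or Gstk1. The members with a core were thus 1 that rose, 1 that fell and 2 that did not pass. Among the mu genes, the windows of Gstm1 and Gstm3 were the most alike, with 58.9% identity in a global alignment and a longest shared run of 15 bases, while Gstm1 and Gstm2 had 53.1% and Gstm2 and Gstm3 49.9%. All 33 other pairs of windows lay between 46% and 52.3%, with a median of 49.1%.

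In the alpha class, Gsta3 encodes the subunit also called Yc2, known in rats for conjugating the reactive epoxide of aflatoxin. Its signal was 95, 98, 73, 63 and 129 in vehicle livers 1 to 5 and 160, 456, 305, 468 and 323 in RG3487 livers 1 to 5. Every RG3487 liver was above every vehicle liver, and RG3487 liver 1 was the lowest of its group. The mean went from 91.6 ± 25.6 to 342 ± 126 (SD, n = 5 each), a log2 change of 1.68 ± 0.25 (SE, 3.21-fold, limma adjusted p = 0.000708), the 10th largest increase among the 7727 genes. Without RG3487 liver 1 the log2 change was 1.92.

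Gsta4, whose enzyme conjugates hydroxynonenal from oxidised lipids, had signals of 1272, 1271, 1188, 1238 and 1375 with vehicle and 1181, 1268, 1265, 1539 and 1424 with RG3487. The groups overlapped, with 2 RG3487 livers above and 1 below the vehicle range. Its log2 change was 0.07 ± 0.07 (95% interval -0.09 to 0.23, adjusted p = 0.517). The change of Gsta3 exceeded that of Gsta4 by 1.61 on the log2 scale in a comparison of the difference between both genes in each animal (exact two-sided permutation p = 0.00794, adjusted p = 0.00992 over the 5 pairs compared). The 5 pairs include 2 with Gstm3, a gene tested only because it was high with RG3487, and the adjusted p draws on them. The groups did not overlap in the difference between Gsta3 and Gsta4.

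In the mu class, Gstm3 is the gene that RefSeq also lists as GstYb4. Its signal was 16, 36, 28, 52 and 16 in the vehicle livers and 178, 251, 140, 123 and 236 in the RG3487 livers. All RG3487 livers lay above all vehicle livers. The vehicle signals were dim: on average only 15.2% of probe sets on a vehicle array read lower, and the gene passed the filter on dim probe sets through the RG3487 group alone, so it could be tested only because it was high there. The mean went from 29.6 ± 15.1 to 186 ± 57 (SD, n = 5 each), a log2 change of 2.16 ± 0.23 (SE, 4.47-fold, adjusted p = 0.000112), the 6th largest increase. The size depended on the pseudocount, with 2.69 for a pseudocount of 1 and 1.40 for 64. A stricter filter, which drops the dimmer 50% of probe sets, leaves Gstm3 untested.

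Gstm1 and Gstm2 encode subunits that are abundant in rat hepatocytes. Gstm1 read 5788, 5792, 4962, 5440 and 5789 with vehicle and 7661, 7702, 7717, 7656 and 6924 with RG3487. The groups did not overlap, and 4 of the RG3487 livers lay within a narrow range above the fifth. These signals lie near the top of the array: on average 99.3% of probe sets read lower with vehicle and 99.9% with RG3487. Its log2 change was 0.44 ± 0.05 (1.36-fold, adjusted p = 0.000223).

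Gstm2 read 2927, 3205, 2714, 2928 and 3067 with vehicle and 3695, 3651, 3546, 3471 and 3482 with RG3487, again without overlap. Its log2 change was 0.27 ± 0.05 (adjusted p = 0.00252). Gstm2 thus changed by 0.17 less than Gstm1 (exact permutation p = 0.00794, adjusted p = 0.00992 over 5 pairs), and the groups did not overlap in that difference. The 5 pairs include the 2 with Gstm3, so this adjusted p draws on pairs that are only described here. After quantile normalization Gstm2 minus Gstm1 was -0.26. The change of Gstm3 was 1.72 larger than that of Gstm1 and 1.89 larger than that of Gstm2. These 2 values are given as a description, since Gstm3 entered only through the group where it is high. They were 2.25 and 2.43 with a pseudocount of 1 and 0.96 and 1.14 with 64. The log2 difference between Gstm1 and Gstm2 varied little among animals, by 0.05 (SD) among vehicle livers and 0.06 among RG3487 livers. The size of the small gap between their changes still moved with quantile normalization, as given above.

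**Figure D2:**
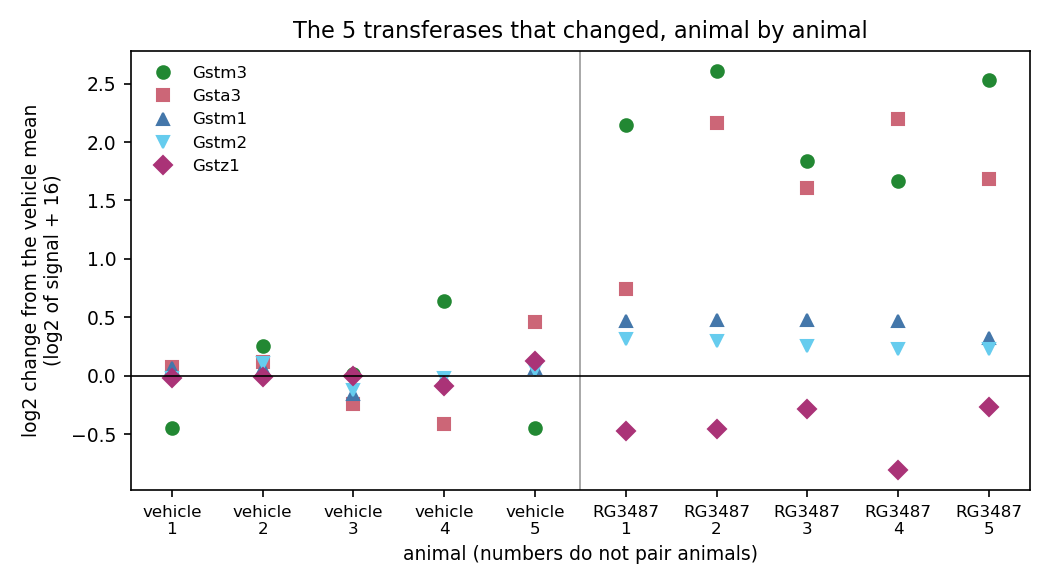
For the 5 transferases that passed, each point gives an animal's log2 signal (plus 16) minus the vehicle mean of that gene. Gstm3 and Gsta3 are the highest genes in every RG3487 liver but in no fixed order, Gstm1 and Gstm2 stay close together, and Gstz1 is below zero in all RG3487 livers.

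The animals did not rank alike for the most changed genes. Gsta3 was lowest of its group in RG3487 liver 1 and highest in liver 4, whereas Gstm3 was lowest in liver 4 and highest in liver 2. Gstz1 and Gstk1 were both lowest in liver 4. With 5 animals a group, no correlation between members was computed.

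Gstp1, the pi-class gene, is known as a marker of preneoplastic foci in rat liver and is normally found more in bile duct cells than in hepatocytes. Its signal was 217, 237, 276, 189 and 274 with vehicle and 238, 263, 224, 241 and 269 with RG3487. The RG3487 values lay within the vehicle range. Its log2 change was 0.06 ± 0.10 (95% interval -0.16 to 0.27, adjusted p = 0.705).

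In the theta class, Gstt1, which acts on small halogenated compounds, read 346, 319, 257 and 296 in vehicle livers 1, 2, 3 and 5, lowest in vehicle liver 4, just below liver 3, and 309, 272, 325, 344 and 317 with RG3487. The RG3487 values lay within the vehicle range, and the log2 change was 0.09 ± 0.09 (95% interval -0.11 to 0.30, adjusted p = 0.486). Gstt2 was the only member with 2 probe sets. The brighter read 546, 477, 459, 478 and 414 with vehicle and 472, 533, 470, 495 and 428 with RG3487, with a log2 change of 0.02 ± 0.08 (95% interval -0.16 to 0.19, adjusted p = 0.900). The dimmer read 33 to 72 with vehicle (median 55) and 38 to 57 with RG3487 (median 45), with a log2 change of -0.08 ± 0.15 (95% interval -0.41 to 0.26, adjusted p = 0.744). Both probe sets of Gstt2 thus overlapped between the groups. The change of Gstt2 minus that of Gstt1 was -0.08 on the log2 scale, which did not pass (exact permutation p = 0.532, adjusted p = 0.532).

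Gstk1 encodes the kappa transferase of mitochondria and peroxisomes. It read 2237, 2050, 1668, 1599 and 2208 with vehicle and 1505, 1891, 2145, 1221 and 1912 with RG3487. RG3487 livers 1 and 4 lay below all vehicle livers and the others within their range. Its log2 change was -0.18 ± 0.15 (95% interval -0.50 to 0.14, adjusted p = 0.376), the widest interval among the brighter probe sets of the members that did not pass.

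Gstz1 encodes maleylacetoacetate isomerase, which catalyses a step in the breakdown of tyrosine. It read 3120, 3135, 3170, 2974 and 3462 with vehicle and 2272, 2309, 2590, 1803 and 2626 with RG3487. All RG3487 livers lay below all vehicle livers, liver 4 the furthest. The mean went from 3172 ± 178 to 2320 ± 330 (SD, n = 5 each), a log2 change of -0.46 ± 0.09 (SE, 1.37-fold lower, adjusted p = 0.00328). Among the 10 transferases it was the only one to fall.

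**Figure D3:**
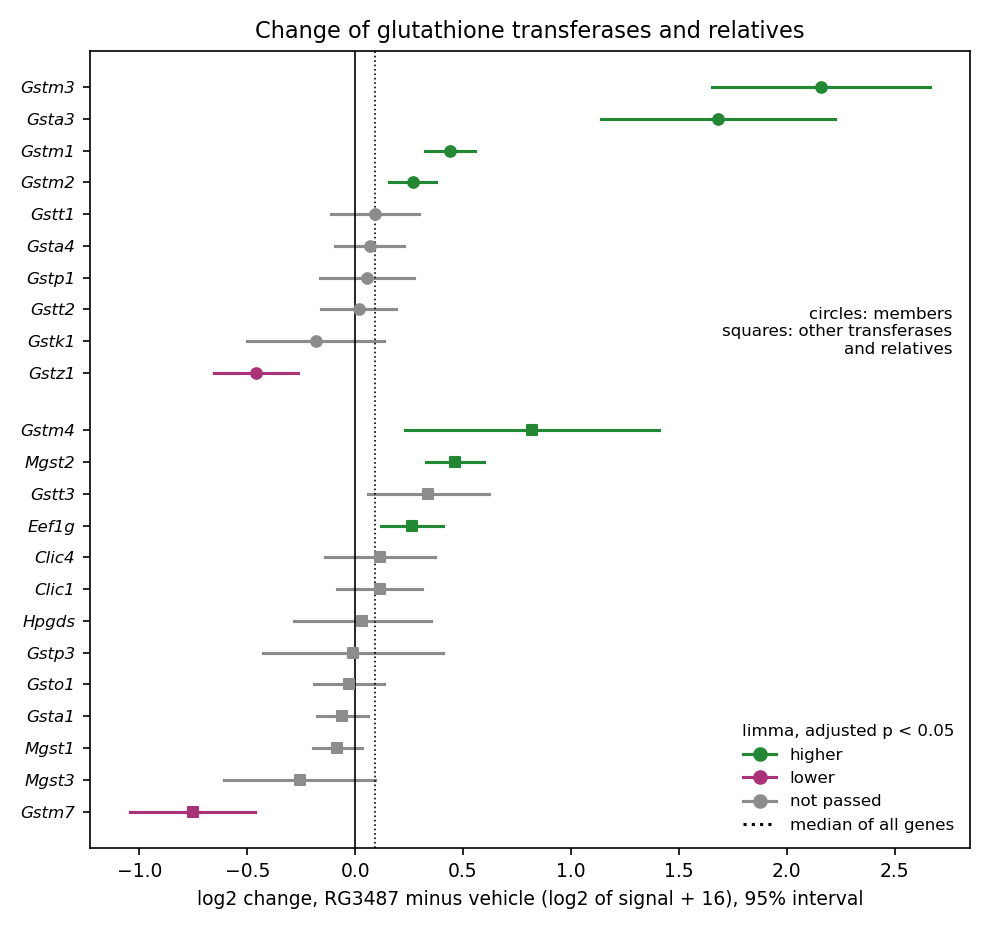
Points give the log2 change and bars the 95% interval from limma for the 10 transferases (circles) and for 13 other transferases and relatives (squares), coloured by the call, with the median of all genes as a dotted line. Gstm3 at 2.16 and Gsta3 at 1.68 stand to the right of the others, and Gstm7 at -0.75 and Gstz1 at -0.46 are the genes called lower.

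Among 29 other transferases and relatives listed, 13 were tested, 6 were left out as dim and 10 had no probe set of their own. Of the 13, 3 rose, 1 fell and 9 did not pass, with a median change of 0.03. With median centring 1 rose and 1 fell, and with scaling to the hybridization controls 7 rose and 1 fell. Over all genes tested 22.3% passed as higher and 7.4% as lower. With median centring 992 of 7727 genes passed as higher, and with scaling to the hybridization controls 4332 of 7728. Mgst2, a membrane-bound transferase, rose by 0.46 ± 0.06 (1502 to 2076, adjusted p = 0.000393). The membrane-bound Mgst1 (-0.08 ± 0.05, adjusted p = 0.256) and Mgst3 (-0.26 ± 0.16, adjusted p = 0.254) did not pass. Under 1 of 21 alternatives Mgst3 passed as lower (adjusted p = 0.0249), and its log2 change reached -0.41 with 1 array left out. Eef1g, a translation factor subunit with a transferase-like domain, rose by 0.26 ± 0.07 (adjusted p = 0.0125), but not after median centring (adjusted p = 0.0928).

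The alpha gene Gsta1, which lies next to Gsta3 in the GRCr8 assembly with no protein-coding gene between them, did not pass: its mean signal was 5659 ± 404 with vehicle and 5422 ± 243 with RG3487 (log2 change -0.06 ± 0.05, 95% interval -0.18 to 0.06, adjusted p = 0.434). Gstt3, of the theta class, read 3122 ± 700 and 3879 ± 219 and did not pass (0.34 ± 0.13, adjusted p = 0.0672), though it passed without vehicle liver 1 (0.43, adjusted p = 0.0243), with quantile normalization (0.42, adjusted p = 0.0342) and with scaling to the hybridization controls (0.54, adjusted p = 0.00268). Gstp3, of the pi class, did not pass (-0.01 ± 0.19).

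The mu genes lie side by side, and their changes differed in sign. In the order of GRCr8 the 9 protein-coding genes are Gstm5, Gstm6l, Gstm7, Gstm6, Gstm3l1, Gstm3, Gstm2, Gstm1 and Gstm4. Gstm7 fell by 0.75 on the log2 scale (SE 0.13; 507 ± 51 to 299 ± 75, SD, n = 5 each; adjusted p = 0.0019), and its call was kept under every alternative. Gstm4 rose by 0.82 ± 0.27 (421 ± 147 to 750 ± 245, adjusted p = 0.0408), an increase that lost its call after quantile normalization (adjusted p = 0.0769) or median centring (0.0651), with robust estimation (0.0844), without vehicle liver 2, 3, 4 or 5 (0.0544, 0.0740, 0.0736 and 0.0601) or without RG3487 liver 1, 2 or 4 (0.0860, 0.0773 and 0.0948). Without vehicle liver 3 its log2 change was 0.60. Gstm5 was left out as dim, with a mean signal of 36 ± 10 with vehicle and 37 ± 11 with RG3487. Near-identical sequences in this family can share signal on an array. The probe sequences were not used here, so shared signal was not tested.

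**Figure D4:**
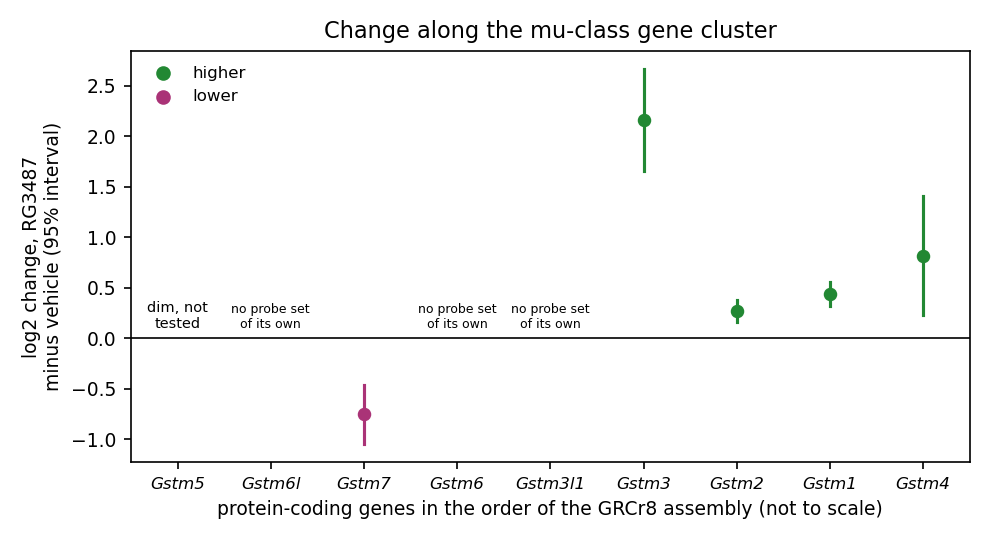
The log2 change (point) and its 95% interval (bar) from limma are plotted for the mu-class genes in their order along the GRCr8 assembly. Gstm3, Gstm2, Gstm1 and Gstm4, the last 4 genes in order, are called higher, Gstm7 is called lower, and the other genes have no tested probe set of their own. The call of Gstm4 is lost under 10 of 21 alternatives, among them quantile normalization, median centring, robust estimation and several fits with 1 array left out.

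The genes that supply glutathione changed in both directions. Of 16 tested genes of glutathione synthesis and recycling 8 rose and 3 fell, with a median change of 0.20. Among all genes tested 22.3% rose and 7.4% fell. Median centring gave counts of 6 and 4, quantile normalization 7 and 4, and scaling to the hybridization controls 10 and 2. Over all genes, median centring gave 992 higher and 867 lower of 7727, and quantile normalization 1018 and 783 of 7726. With scaling to the controls 4332 of 7728 genes were higher and 248 lower. Both subunits of glutamate-cysteine ligase, the rate-limiting enzyme of glutathione synthesis, rose: Gclc by 0.62 ± 0.13 (640 to 997, adjusted p = 0.0047) and Gclm by 0.59 ± 0.10 (1194 to 1806, adjusted p = 0.00174). Gss, the second enzyme of synthesis, rose by 0.74 ± 0.11 (216 to 368, adjusted p = 0.000613), and Slc3a2, a subunit of amino acid transporters, by 0.55 ± 0.10 (adjusted p = 0.00277). Nnt, a mitochondrial source of NADPH, fell from 1456 to 730.4 (-0.99 ± 0.08, adjusted p = 1.46e-05).

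Of the genes counted in that list, 2 encode enzymes that break glutathione down, and they are named here after their values were seen. Chac1 fell (-1.04 ± 0.29, adjusted p = 0.0193), but its mean signal was 94 ± 54 with vehicle and only 35 ± 16 with RG3487, so it passed the filter on dim probe sets through the vehicle group alone. Chac2 rose (0.40 ± 0.09, adjusted p = 0.00664).

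Among 9 tested genes for export of conjugates and formation of mercapturates, the end products of conjugation, 2 rose and 2 fell, and with scaling to the hybridization controls 5 rose and 0 fell. The counts of higher genes lay near the share of all genes, 22.3% as deposited and 4332 of 7728 with that scaling. As lower, 7.4% of all genes passed as deposited. Abcc2, the pump that moves conjugates into bile, rose by 0.88 ± 0.10 (537 to 1008, adjusted p = 0.00013). Acy1, an aminoacylase, rose by 0.37 ± 0.06 (adjusted p = 0.00134). The cysteine conjugate lyases Kyat1 (-0.37 ± 0.08, adjusted p = 0.00495) and Kyat3 (-0.21 ± 0.07, adjusted p = 0.0367) fell as deposited, but neither passed with scaling to the hybridization controls (adjusted p = 0.0942 and 0.97).

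Of 16 other glutathione-using enzymes tested, 3 rose and 1 fell, against 2 and 3 after quantile normalization or median centring and 9 and 0 with scaling to the hybridization controls. For all genes tested the shares were 22.3% higher and 7.4% lower, and with scaling to those controls 4332 of 7728 were higher. Quantile normalization gave 1018 higher and 783 lower of 7726 genes, and median centring 992 and 867 of 7727. Glrx3, a glutaredoxin, rose by 0.76 ± 0.08 (736 to 1251, adjusted p = 9.26e-05) and Prdx6, a peroxidase that uses glutathione, by 0.40 ± 0.05 (adjusted p = 0.000447). Glrx2 rose by 0.22 ± 0.07 (adjusted p = 0.0294), but not after quantile normalization (adjusted p = 0.209) or median centring (0.163). Glrx fell by 0.39 (SE 0.08; adjusted p = 0.00363), but did not pass with scaling to the hybridization controls (0.0628).

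Of 13 regulators tested, 2 rose and 0 fell, beside 22.3% and 7.4% of all genes tested. With quantile normalization 2 rose and 1 fell, and with scaling to the hybridization controls 4 rose. Over all genes, 1018 of 7726 were higher and 783 lower with quantile normalization. With scaling to the controls 4332 of 7728 were higher. Nfe2l2 rose from 663 ± 101 to 2033 ± 115 (SD, n = 5 each; 1.61 ± 0.09, 3.04-fold, adjusted p = 2.5e-06), and Hnf4a, a hepatocyte factor, rose by 0.29 ± 0.06 (adjusted p = 0.00653). Keap1, which holds NRF2 in the cytoplasm, did not pass (0.02 ± 0.10, 95% interval -0.20 to 0.24), nor did Ahr (-0.06 ± 0.15, 95% interval -0.40 to 0.28). Cyp1a1, the textbook target of the aryl hydrocarbon receptor, was dim with vehicle (15 ± 10) and read 258 ± 82 with RG3487. Like Gstm3 it passed the filter on dim probe sets through the RG3487 group alone, and it was not tested under the stricter filter. Its log2 change of 3.17 ± 0.23 (adjusted p = 1.13e-05) depended on the pseudocount, with 4.27 for a pseudocount of 1 and 2.01 for 64. Nqo1, a target of both factors, read 676 ± 372 and 1431 ± 713, and its difference did not pass (1.08 ± 0.57, adjusted p = 0.175), except without RG3487 liver 2 (1.56, adjusted p = 0.033). Without vehicle liver 3 its log2 change was 0.61 (adjusted p = 0.364).

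**Figure D5:**
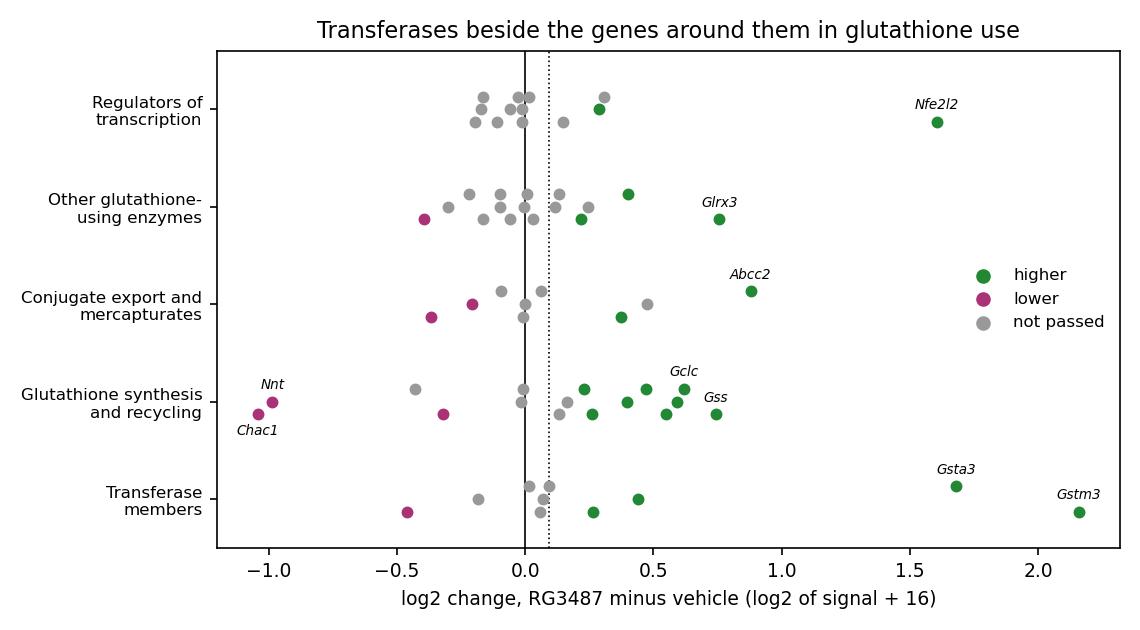
Each point is the log2 change of a gene, by list, coloured by limma's call, with 0 as a solid line and the median of all genes as a dotted line. The transferases reach from -0.46 for Gstz1 to 2.16 for Gstm3, and Nfe2l2 at 1.61 stands apart from the other regulators.

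The genes with the most similar profile were found by the root mean square difference between the animals' log2 changes from the vehicle mean, over all 10 animals. For Gstm3 these were Phlda3 (0.41), Cyp2c12 (0.44) and Cryl1 (0.60). For Gsta3 they were the clock gene Per2 (0.29), Hsd17b2 (0.39) and Nfe2l2 (0.45). Per2 was dim with vehicle (mean signal 28.8, against 117 with RG3487). Like Gstm3 it passed the filter on dim probe sets through the RG3487 group alone. These are descriptions of likeness among 7727 genes, with no test.

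The liver label was checked against markers. All 8 hepatocyte markers with a probe set of their own were bright, with a summed signal of 58760 to 63647 in the vehicle livers and 50392 to 59451 in the RG3487 livers, and 4 of the 8 were lower with RG3487. After quantile normalization 0 were lower, after median centring 5, and with scaling to the hybridization controls 0 were lower and 1 was higher. Of 8 tested pericentral markers 0 rose and 2 fell (summed signal 23620 to 28542 and 21936 to 24038), and of 11 periportal markers 2 rose and 5 fell (40628 to 43487 and 34677 to 42967). The balance of these calls moved with the scaling. After quantile normalization 1 pericentral marker rose and 2 fell and 3 periportal markers rose and 2 fell. With scaling to the hybridization controls the counts were 3 and 2 and, for periportal markers, 5 and 1. Median centring kept the balance of the deposited values, with 0 and 3 for pericentral and 2 and 6 for periportal markers. Over all genes tested, 4332 of 7728 rose and 248 fell with scaling to the hybridization controls. Quantile normalization gave 1018 higher and 783 lower of 7726 genes, and median centring 992 and 867 of 7727. As deposited, 22.3% of all genes tested rose and 7.4% fell. Of 8 macrophage markers 1 rose and 3 fell, of 6 endothelial markers 0 rose and 1 fell, of 5 stellate cell markers 1 rose and 1 fell, and none of the 2 bile duct, 2 lymphocyte and 2 red cell markers tested passed. Here too the counts moved with the scaling. Of the macrophage markers 1 rose and 5 fell after quantile normalization and 1 rose and 1 fell with scaling to the hybridization controls. Of the endothelial markers 2 fell after median centring and 0 with scaling to those controls. Of the stellate cell markers 0 rose and 2 fell after quantile normalization or median centring, and 2 rose and 1 fell with scaling to the controls. In addition 1 lymphocyte marker fell after quantile normalization or median centring, and 1 bile duct marker rose with scaling to the controls. The bile duct marker Krt19 was dim (15 ± 6 and 20 ± 6). In whole liver, fewer cells of a type and less RNA per cell cannot be told apart, and the part of these markers in the transferase changes was not tested.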

How the data were processed

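Gene expression was measured in 10 rat livers, 1 Affymetrix array each. The authors deposited whole-number signal intensities on a linear scale, 1 for each probe set; the submitters' processing notes name MAS5. The version and scaling target were not given in the sources used here. Precision is limited by the number of arrays.

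Of 15859 probe sets that are not controls, 12562 had 1 gene symbol, 332 had several and 2965 had none. Of the single symbols 12530 matched RefSeq (GRCr8), where 1 symbol changed and none of the transferases. An alpha-class probe set annotated to more than 1 gene was left out by the rule.

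The analysis used log2 of each signal plus 16, and every fold change is on that scale, which understates the change of dim genes. The dimmest 25% of probe sets (mean over all arrays, equal to a signal of about 40.2) were left out. Groups were compared with limma 3.58.1 in R 4.3.3 (lmFit, eBayes with a mean-variance trend, two-sided), and the code was tested on simulated data. A gene was its retained single-symbol probe set with the highest mean. Differences between members of a class went through an exact permutation test, two-sided, over every regrouping of the animals. Named genes were the 10 members, up to 4 genes with the smallest p among those that passed in each list, Nfe2l2, Keap1, Ahr, Cyp1a1, Nqo1, Gclc, Gclm and Abcc2, and the 3 nearest profiles to Gstm3 and Gsta3. Mgst1, Mgst3, Gsta1, Gstt3, Gstp3, Gstm5, Chac1, Chac2 and Krt19 were named after their values were seen. The members, lists and alternatives were chosen with earlier results of these data known. Numbers 1 to 5 recur in the titles of both groups, but each array has its own animal in the source names, and no pairing was assumed.

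Tried as alternatives were a pseudocount of 1 or 64, quantile normalization, median centring, scaling to the hybridization controls, no filter, the dimmest 50% left out, no trend, robust estimation, the number as a block, the mean over a gene's probe sets, and each array left out in turn.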

Additional observations from a re-analysis of the deposited data

Results flagged for a closer look

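In 22 groups of 5 signals, the 11 probe sets in both treatment groups, 1 held a single far value. For Gstm1, RG3487 liver 5 read 6924, while the other RG3487 livers read 7656 to 7717. Its gap to the nearest liver was 0.923 of the group's whole range. A group was marked where this share passed 0.71. Chance marks about 1 group in 20 at that cut-off, so about 1 would be met here. The share of 0.923 lies above the cut-off, and how often chance gives so large a share was not tested. RG3487 liver 5 was still above all vehicle livers.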

How the results depend on the processing

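Of 209 values of the 10 transferases under the 21 alternatives, 206 kept their side of the threshold, and the 3 that did not were Gsta4, Gstt1 and Gstt2, which passed as higher with scaling to the hybridization controls. The 209 include 20 values of Gstm3, all of which kept their side. These are only described, since as deposited Gstm3 could be tested only because it was high with RG3487. With scaling to the hybridization controls 7 transferases were called higher, Gstm3 among them. Without the dimmest 50% of probe sets 3 were called higher, since Gstm3 was no longer tested. The count of transferases called lower was 1 under every alternative. Over all genes, 1724 higher and 572 lower calls became 1018 higher with quantile normalization (56.5% of calls higher, against 75.1%), 992 higher and 867 lower after median centring (53.4%), and 4332 higher and 248 lower with scaling to the hybridization controls (94.6%). That scaling takes the spiked-in amounts to be equal, which was not tested. Gsta1, which did not pass as deposited, passed as higher with it (0.14, adjusted p = 0.0298). The 3 differences between members of a class that do not involve Gstm3 kept their side of the threshold under each alternative that could be run. With the replicate number as a block, 1481 genes were higher and 546 lower, and the same counts of transferases, 4 higher and 1 lower, were called, while Gstt3 passed (adjusted p = 0.0489). Animals of the same number share only a number: the correlation of their deviations from the group means was -0.0371 to 0.174, and for 1 of the 5 numbers the best match was the animal of the same number.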
